A study of Mus musculus with 16 samples.

Results

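The CXC chemokines described here are 10 genes of the family named for the spacing of the first cysteines in the protein: Cxcl1, Cxcl2, Cxcl3, Cxcl9, Cxcl10, Cxcl12, Cxcl13, Cxcl14, Cxcl16 and Pf4. They were taken by gene name from the 54532 genes of the deposited count and FPKM tables, and all 10 were found. RNA was sequenced from bronchoalveolar lavage cells, the cells washed out of the airways and alveoli, of mice aged 8 to 10 weeks, 14 days after an oropharyngeal dose. The 4 groups of 4 libraries were males given bleomycin, females given bleomycin, males given saline and females given saline. The bleomycin dose was 4 U per kg of body weight, and bleomycin, a drug that breaks DNA, causes lung injury and fibrosis in mice. The strain is C57BL/6 in the series text and C56BL/6J in the sample labels, and no transgene or mutation is named in any group. The libraries carry the codes C33, C65, C66 and C67 in bleomycin males, C49, C50, C68 and C69 in bleomycin females, C70 to C73 in saline males and C74 to C77 in saline females, and values are listed in that order. No label names a batch or says whether a library is 1 animal or a pool, so p-values measure the spread between these libraries.

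Chemokines are small secreted proteins that steer leukocytes along concentration gradients through G protein-coupled receptors. The ELR members (Cxcl1, Cxcl2 and Cxcl3) act on Cxcr2 and draw neutrophils, and their genes are classic NF-kB targets. Cxcl9 and Cxcl10 are induced by interferons and act on Cxcr3 of activated T cells and NK cells, Cxcl16 is made as a transmembrane protein and acts on Cxcr6, Cxcl12 on Cxcr4, and Cxcl13 on Cxcr5 of B cells. In the lung, alveolar macrophages are a known source of several of them.

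Libraries held 16385784 to 24567609 counts, and 7 of the 10 members passed the filter on low counts; Cxcl1, Cxcl12 and Cxcl13 did not. Levels per gene are CPM, counts relative to the library total after scaling by TMM, a composition factor from edgeR, and levels compared between genes are FPKM, which are per kilobase of gene. The labelled material was checked by markers. The 12 listed markers of resident alveolar macrophages summed to 11800 to 24700 CPM in bleomycin libraries and 18200 to 27100 CPM in saline libraries. All 12 had counts in each library. Averaged over the sexes 1 rose and 9 fell, where 34.7% of all genes rose and 28.8% fell. Most of each sum was Chil3, at 9130 to 20700 CPM in bleomycin libraries and 12400 to 20900 CPM in saline libraries. Krt79, named after its values were seen, was at 11.6 to 64.1 CPM in bleomycin libraries and 504 to 718 CPM in saline libraries. Markers of monocytes and monocyte-derived macrophages summed to 4900 to 11600 CPM in bleomycin libraries, against 373 to 497 CPM in saline libraries. Most of the bleomycin sum was Apoe, at 3010 to 8360 CPM, and most of the saline sum was Csf1r, at 273 to 359 CPM. In such bulk RNA, fewer cells of a type and less RNA per cell cannot be told apart. The library C66, from a bleomycin male, stood apart from the other 15 in Cxcl2 and Cxcl3, and results on these genes are given with and without it.

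Bleomycin lavage cells carried far more Cxcl16 and moderately more Cxcl10, Pf4 and Cxcl9 than saline cells, in males and in females. With the sexes averaged, these 4 members rose and 0 fell among the 7 tested by edgeR's quasi-likelihood test with Benjamini-Hochberg adjustment over 15257 genes, at an adjusted p below 0.05. Over all genes tested, 34.7% rose and 28.8% fell in this comparison. The median log2 fold change was 1.61 over the 7 members and 0.0116 over all genes. At an unadjusted p under 0.05 there were 5 members, the added member being Cxcl14 with a positive fold change, and DESeq2 and limma voom also called 0 members fallen. In males 5 members rose and 0 fell, where 31.5% of all genes rose and 24.9% fell. In females 4 rose and 0 fell, where 26.7% of all genes rose and 17.2% fell. Scaling by library totals alone moved the median of all genes to -0.20 and the calls over all genes to 3720 risen and 7001 fallen, in place of 5300 risen and 4400 fallen, and the same count of 4 members rose with it.

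**Figure D1:**
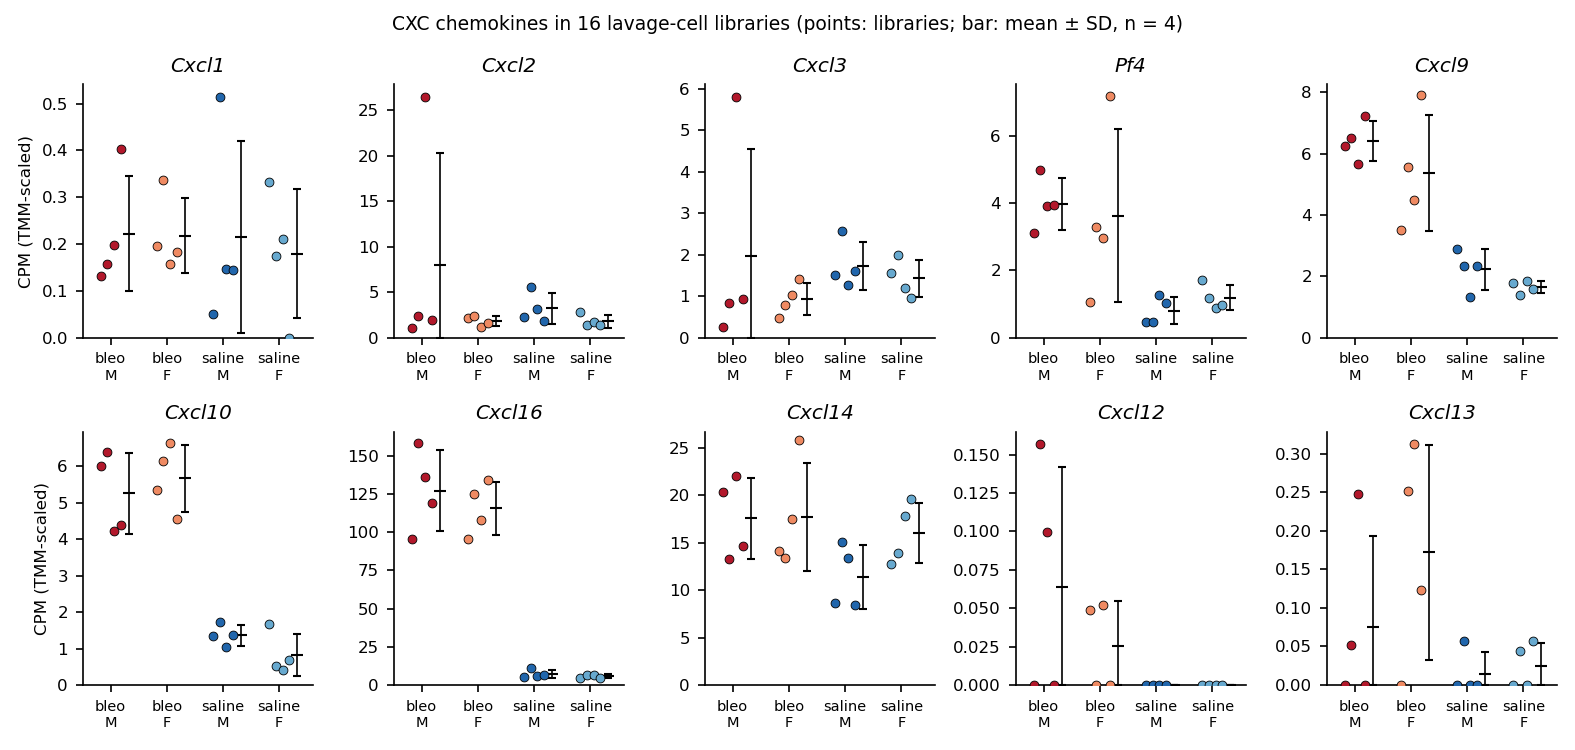
Level of each of the 10 CXC chemokines in CPM (y axes from 0, scaled per gene) in the 16 libraries, with bleomycin males (bleo M) and females (bleo F) left of saline males and females. Points are libraries, bars are the mean ± SD of 4 libraries and are drawn no lower than 0. The Cxcl16, Cxcl10 and Cxcl9 points of the bleomycin groups lie above those of the saline groups, and 1 bleomycin male library at 26.5 CPM stands alone for Cxcl2.

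Cxcl16, the transmembrane ligand of Cxcr6 and also a scavenger receptor for oxidized lipoprotein, was the most abundant member after bleomycin. Its CPM was 95.6, 158, 136 and 119 in bleomycin males and 95.5, 125, 108 and 134 in bleomycin females, against 5.33, 11.3, 6.03 and 6.35 in saline males and 4.61, 6.79, 6.83 and 4.71 in saline females. Every bleomycin library lay above every saline library, and the lowest bleomycin value, 95.5 in C49, stood far from the highest saline value, 11.3 in C71. The fitted change averaged over the sexes was 18.8-fold, a log2 fold change of 4.23 (SE 0.16, edgeR adjusted p 8.98e-14). It was 4.14 (SE 0.22) in males and 4.32 (SE 0.22) in females, and the difference between these changes was -0.18 (SE 0.29, edgeR adjusted p 0.87).

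The Cxcl16 gene (GRCm38 chr11:70453983-70459984, minus strand) shares 552 exon bases with Zmynd15 on the opposite strand, and the strand setting of the authors' counting is not given in the sources used here. Zmynd15 was listed with 507 to 728 counts in bleomycin males and 346 to 781 in bleomycin females, against 35 to 103 in saline males and 30 to 51 in saline females. Cxcl16 itself had 1958 to 3013 counts in bleomycin libraries, against 83 to 198 in saline libraries. The part of reads from Zmynd15 in the Cxcl16 counts was not tested. The summed monocyte and monocyte-derived macrophage markers given above moved with Cxcl16. All 12 of them rose by the same test averaged over the sexes, where 34.7% of all genes rose. Ly6c2 had 0 or 1 count and F13a1 0 to 11 counts in the saline libraries. These passed the filter mainly through the bleomycin groups, so the count is no evidence on its own. The part of these cells in the Cxcl16 difference was not tested.

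Cxcl9 and Cxcl10 lie side by side on chromosome 5, within a span of 27.5 kb (GRCm38 chr5:92321347-92328079 and chr5:92346638-92348889, both on the minus strand), and are the interferon-induced ligands of Cxcr3. They rose together, and the stretches before their start sites are shown because interferon and NF-kB motifs lie in them (RefSeq, GRCm38.p6, minus strand, Cxcl9 at chr5:92328199-92328279 and Cxcl10 at chr5:92348980-92349119). Capitals mark matches of the interferon-response-like pattern GAAANNGAA, first in each stretch, and of the NF-kB-like pattern GGGANNTTC, where N is any base and either strand counts.
Cxcl9: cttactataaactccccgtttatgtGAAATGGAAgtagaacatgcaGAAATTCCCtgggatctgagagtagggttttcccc
Cxcl10: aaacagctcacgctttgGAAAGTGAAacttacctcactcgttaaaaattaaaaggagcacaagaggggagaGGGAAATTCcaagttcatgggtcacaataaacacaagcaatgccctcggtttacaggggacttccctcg

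In the 250 bases before the start site, GAAANNGAA began 175 bases before the start of Cxcl9 and 213 bases before that of Cxcl10. Among 32851 RefSeq promoters, 7.13% held GAAANNGAA within that window and 3.23% held GGGANNTTC. Of the 9 members in the promoter table, 3 held GAAANNGAA (Cxcl9, Cxcl10 and Cxcl14) and 5 held GGGANNTTC (Cxcl1, Cxcl2, Cxcl3, Cxcl9 and Cxcl10). The patterns were chosen with the members' promoters in view, and a match is a description of letters, not a shown binding site.

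Cxcl10 CPM was 6.02, 6.40, 4.22 and 4.39 in bleomycin males and 5.36, 6.14, 6.63 and 4.55 in bleomycin females, against 1.34, 1.72, 1.03 and 1.36 in saline males and 1.67, 0.522, 0.421 and 0.682 in saline females. The bleomycin and saline libraries did not overlap, and C74 was the only saline female within the range of the saline males. The change averaged over the sexes was 5.18-fold, a log2 fold change of 2.37 (SE 0.22, edgeR adjusted p 3.64e-08). In males it was 1.95 (SE 0.31) and in females 2.80 (SE 0.33), a difference of -0.85 (males minus females, SE 0.45) whose adjusted p was 0.645 and unadjusted p 0.0729 in the edgeR fit.

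Cxcl10 lies within the Art3 gene, which runs on the opposite strand and shares 133 of the 2252 exon bases of Cxcl10. Art3 was listed with 0 to 9 counts in any bleomycin library and 0 to 2 in any saline library, against 74 to 146 counts of Cxcl10 in bleomycin libraries and 8 to 30 in saline libraries.

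Cxcl9 CPM was 6.24, 6.5, 5.66 and 7.21 in bleomycin males and 3.51, 5.55, 4.49 and 7.92 in bleomycin females, against 2.9, 2.35, 1.32 and 2.33 in saline males and 1.78, 1.39, 1.84 and 1.59 in saline females. The bleomycin libraries all lay above the saline libraries, with C49 the lowest of them. Averaged over the sexes the change was 3.06-fold, a log2 fold change of 1.61 (SE 0.18, edgeR adjusted p 3.12e-07). The changes were 1.53 in males and 1.70 in females. Dendritic cells are a known source of this ligand. Their 8 listed markers all rose averaged over the sexes, where 34.7% of all genes rose. There were 7 risen in males and 8 in females, where 31.5% and 26.7% of all genes rose. These markers summed to 284 to 675 CPM in bleomycin libraries and 21.6 to 53.8 CPM in saline libraries. The part of dendritic cells in the Cxcl9 difference was not tested.

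Genes of interferon gamma signalling rose with this pair: 7 of the 7 tested of 8 listed, where 34.7% of all genes rose, with a median log2 fold change of 0.849. Socs1, a feedback inhibitor of JAK kinases, had the largest change among the 4 with the smallest p (3.76, SE 0.25), followed by the receptor chain Ifngr2 (0.87, SE 0.071), the kinase Jak2 (0.86, SE 0.069) and the kinase Jak1 (0.61, SE 0.054). Ifng itself did not pass the filter and was at 0 to 0.505 CPM in bleomycin libraries and at 0 CPM in all 8 saline libraries.

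**Figure D2:**
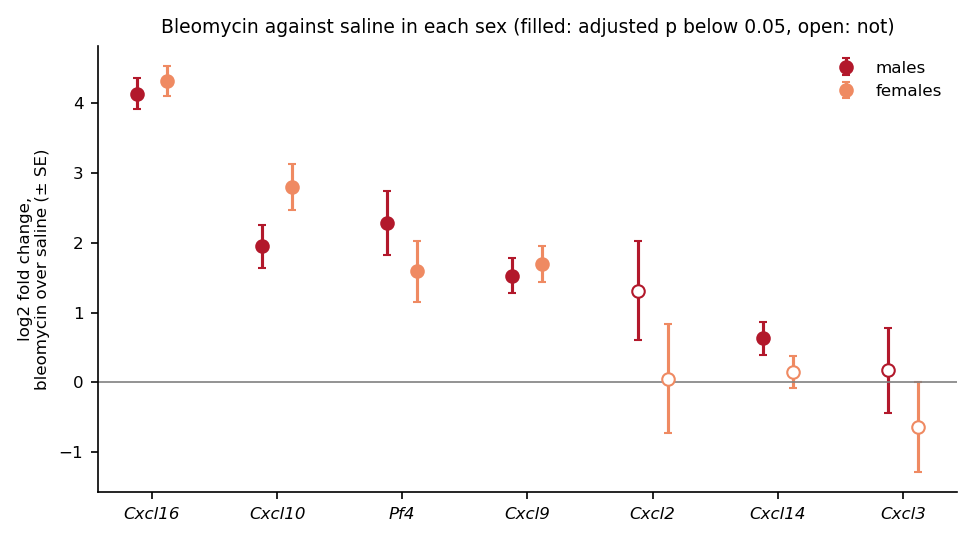
Log2 fold change of bleomycin over saline (y axis, ± SE) for the 7 members that passed the filter, in males and in females. Filled points passed an edgeR adjusted p of 0.05 and open points did not. Cxcl16, Cxcl10, Pf4 and Cxcl9 are filled in both sexes, Cxcl14 in males, and Cxcl2 and Cxcl3 in neither sex.

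Pf4, platelet factor 4, is stored in platelet granules and is also made by some macrophages. It lies at GRCm38 chr5:90772435-90773383, in the same stretch of chromosome 5 as the ELR members. Its CPM was 3.10, 4.98, 3.92 and 3.94 in bleomycin males and 1.07, 3.28, 2.98 and 7.19 in bleomycin females, against 0.465, 0.458, 1.27 and 1.02 in saline males and 1.72, 1.17, 0.894 and 0.966 in saline females. The males did not overlap, while among females C49 at 1.07 CPM lay within the saline range and C69 was the highest of all 16. The log2 fold change was 1.94 averaged over the sexes (SE 0.32, edgeR adjusted p 3.56e-05), 2.28 in males (SE 0.46, adjusted p 0.000383) and 1.59 in females (SE 0.44, adjusted p 0.00653). The difference between the sexes' changes was 0.69 (SE 0.63, adjusted p 0.754).

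Platelet and megakaryocyte markers were measured beside Pf4. The 10 listed markers summed to 13.4 to 18.5 CPM in bleomycin libraries and 29.1 to 48.1 CPM in saline libraries, and most of that sum was Clec1b (11 to 15.6 CPM in bleomycin libraries and 27.3 to 46.1 CPM in saline libraries). Of the 4 that passed the filter 1 rose (Treml1, log2 fold change 3.19) and 1 fell (Clec1b, -1.32), averaged over the sexes. In that comparison 34.7% of all genes rose and 28.8% fell. Treml1 never exceeded 7 counts under saline and passed the filter mainly through the bleomycin groups, so its rise is no evidence on its own. The defining marker Gp1bb had 0 counts in all 16 libraries, Gp9 had 0 or 1 count in any bleomycin library and up to 6 in saline libraries, Ppbp, the neighbouring platelet chemokine, had at most 5 counts in bleomycin libraries and 0 in saline libraries, and Tubb1 had 2 to 8 counts in bleomycin libraries and 0 to 4 in saline libraries. The part of platelets in the Pf4 difference was not tested.

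Cxcl14, a chemokine made in many tissues at rest, whose receptor is not settled, was the most abundant member per length in saline cells. Its CPM was 20.3, 13.3, 22.0 and 14.6 in bleomycin males and 14.1, 13.4, 17.5 and 25.8 in bleomycin females, against 8.64, 15.1, 13.4 and 8.43 in saline males and 12.8, 13.9, 17.8 and 19.6 in saline females. The groups overlapped in each sex, and C70 and C73 were the lowest of all 16 libraries. In males the log2 fold change was 0.63 (SE 0.24, edgeR adjusted p 0.0313), in females 0.14 (SE 0.23, adjusted p 0.655) and averaged over the sexes 0.38 (SE 0.17, adjusted p 0.0513). The difference between the sexes' changes was 0.48 (SE 0.33, adjusted p 0.675). The call in males was lost without C33 (0.55, adjusted p 0.0724), without C66 (0.495, adjusted p 0.106), without C70 (0.513, adjusted p 0.0984), without C73 (0.504, adjusted p 0.102) and with library totals alone (0.397, adjusted p 0.137). The average passed under 9 of 21 alternatives, with adjusted p between 0.0155 and 0.371 over all of them. In females the sign turned without C69 (-0.117, adjusted p 0.716).

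The ELR genes Cxcl1, Cxcl2 and Cxcl3 lie with Pf4 within 134 kb of chromosome 5 (GRCm38, Cxcl3 at chr5:90786103-90789600, Cxcl1 at chr5:90891241-90893115 and Cxcl2 at chr5:90903871-90905938, all on the plus strand). Their promoters are shown because Cxcl2 and Cxcl3 were high in the same library. Each window covers 110 to 31 bases before the RefSeq start site (GRCm38.p6, plus strand, Cxcl1 at chr5:90891135-90891214, Cxcl2 at chr5:90903789-90903868, Cxcl3 at chr5:90785991-90786070), and capitals mark the NF-kB-like pattern GGGANNTTC, whose matches on the 2 strands overlap.
Cxcl1: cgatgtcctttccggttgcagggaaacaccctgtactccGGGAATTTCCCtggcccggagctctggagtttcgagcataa
Cxcl2: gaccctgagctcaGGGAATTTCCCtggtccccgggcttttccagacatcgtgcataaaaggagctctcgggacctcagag
Cxcl3: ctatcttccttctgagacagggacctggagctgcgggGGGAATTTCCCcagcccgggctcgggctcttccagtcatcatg

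The match began 71, 97 and 73 bases before the start sites of Cxcl1, Cxcl2 and Cxcl3, with the same letters in all of them. Cxcl1 stayed near the floor of detection, with 3 to 9 counts in bleomycin libraries and 0 to 9 in saline libraries, and it did not pass the filter. Summed over 4 libraries, Cxcl1 had 19 counts in bleomycin males and 18 in bleomycin females, against 16 in saline males and 14 in saline females. In C66 it had 4 counts.

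Cxcl2 (also called MIP-2) CPM was 1.05, 2.41, 26.5 and 1.97 in bleomycin males and 2.15, 2.44, 1.20 and 1.60 in bleomycin females, against 2.33, 5.61, 3.14 and 1.84 in saline males and 2.83, 1.35, 1.68 and 1.36 in saline females. C66 was 10.8 times the highest of the other 7 bleomycin libraries, and those 7 overlapped with the saline libraries. The log2 fold change averaged over the sexes was 0.68 (SE 0.53, edgeR adjusted p 0.274) with C66 and -0.409 (adjusted p 0.212) without it. In males it was 1.31 (SE 0.71, adjusted p 0.127) with C66 and -0.835 (adjusted p 0.0957) without it, and in females it was 0.05 (SE 0.78, adjusted p 0.967). The value in males passed without the library C33 (1.68, adjusted p 0.0342) and with no filter on low counts (1.30, adjusted p 0.021), with C66 in each of these fits.

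Cxcl3, a close relative of Cxcl2, was at 0.262, 0.839, 5.81 and 0.940 CPM in bleomycin males and 0.488, 0.799, 1.04 and 1.41 CPM in bleomycin females, against 1.5, 2.58, 1.27 and 1.60 CPM in saline males and 1.55, 2.0, 1.21 and 0.966 CPM in saline females. Without C66 the bleomycin males all lay below the saline males, whereas the females overlapped. The log2 fold change averaged over the sexes was -0.23 (SE 0.45, edgeR adjusted p 0.664) with C66 and -1.01 (adjusted p 0.00855) without it. In males it was 0.17 (SE 0.61, adjusted p 0.828) with C66 and -1.35 (adjusted p 0.0197) without it. Leaving out C66 therefore put 1 member, Cxcl3, among the fallen in the average and in males. C66 was singled out by its high Cxcl2 and Cxcl3 values, so the p-values without it are a description and no evidence of a fall. In females the change was -0.64 (SE 0.65, adjusted p 0.456).

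Genes higher in the library C66 than in every other bleomycin library were counted. Of 15257 genes, 3 exceeded the highest of the other 7 bleomycin libraries there by 2 or more on the log2 CPM scale and 8 by 1 or more. Genes lower in C66 were not counted, and no such count is given for another library. Cxcl2 ranked 1 (3.39 above) and Cxcl3 ranked 4 (1.97 above). S100a9, a neutrophil and monocyte calprotectin subunit, was at 40.6 CPM in C66, against 3.19 to 14.4 CPM in the other 7. Its partner S100a8 was at 62.4 CPM, within the 33.6 to 69.7 CPM of the others. Of the other neutrophil markers, C66 was the highest for Csf3r (42.4 CPM, others 29.9 to 42) and Ltf (5.71 CPM, others 1.44 to 5.48). It was the lowest for Mmp8 (34.6 CPM, others 35 to 92). Ly6g had 1 count in C66, at the floor of detection, and 0 in the others. Retnlg (7.30 CPM, others 0.992 to 13.1), Cxcr2 (41.3 CPM, others 31.6 to 52.7) and Ngp (0.0496 CPM, others 0 to 0.168) were within range, and Mpo, Elane and Camp had 0. The part of neutrophils in the Cxcl2 and Cxcl3 levels of C66 was not tested. Of the 13 listed NF-kB inducers and feedback genes, 2 were highest in C66, Tnf and Il1a (named after their values were seen), at 9.38 CPM (others 4.3 to 9.13) and 38.1 CPM (others 25.9 to 37.9). Il1b was at 53.5 CPM (others 31.5 to 55.6), Nfkbia at 136 (79.3 to 154), Relb at 59.0 (42.9 to 67.8) and Zfp36 at 110 (85.7 to 121). Rela was at 107 (94.1 to 116), Nfkb2 at 92.1 (79.7 to 103), Nfkbiz at 13.5 (6.76 to 24.9) and Il6 at 0.298 (0 to 0.42). Rel at 72.9 (65.1 to 106), Tnfaip3 at 60 (49.6 to 72.9) and Nfkb1 at 173 (172 to 205) were in the lower part of the range, with C66 at rank 6, 6 and 7 from the highest.

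**Figure D3:**
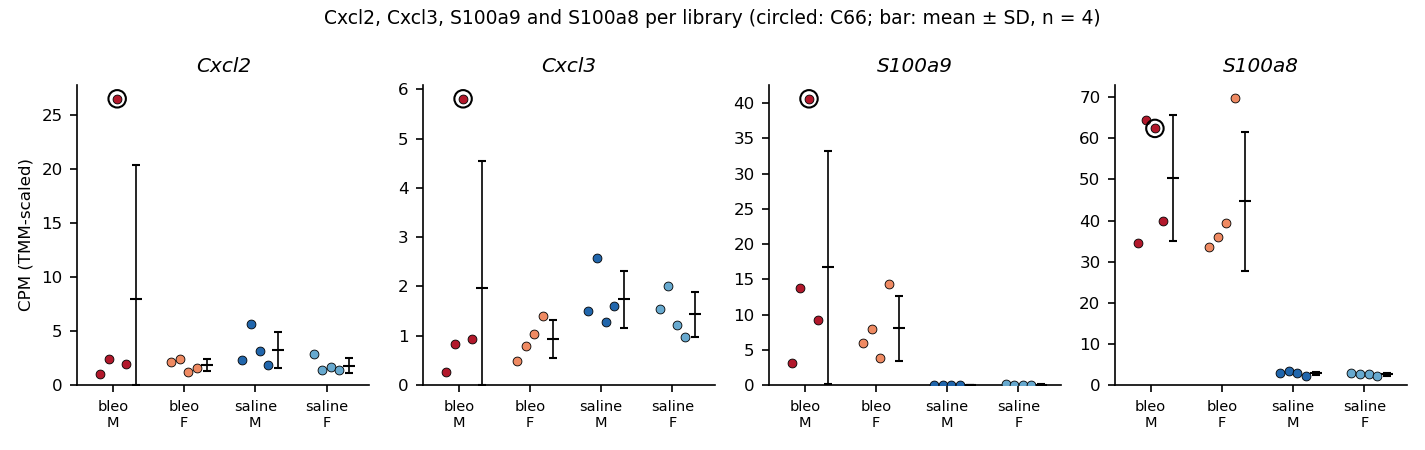
Levels of Cxcl2, Cxcl3, S100a9 and S100a8 in CPM (y axes from 0, scaled per gene) per library, bleomycin males (bleo M) and females (bleo F) left of saline males and females, with the library C66 circled. Points are libraries and bars the mean ± SD of 4, drawn no lower than 0. C66 is the highest library for Cxcl2 (26.5 CPM), Cxcl3 (5.81 CPM) and S100a9 (40.6 CPM) but not for S100a8 (62.4 CPM).

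Cxcl2 and Cxcl3 are alike enough that short reads can fit both genes. Their coding sequences, both of 300 bases, were 89.7% identical, and their transcripts shared an identical run of 157 bases. How reads that fit both were assigned is not given in the sources used here, so the split of counts between them is uncertain. The coding sequences are shown to make this visible (GENCODE M21, GRCm38, plus strand, spliced, Cxcl2 within chr5:90903945-90904441 and Cxcl3 within chr5:90786171-90787445), with the 31 bases that differ in capitals. The first 98 bases are the same.
Cxcl2: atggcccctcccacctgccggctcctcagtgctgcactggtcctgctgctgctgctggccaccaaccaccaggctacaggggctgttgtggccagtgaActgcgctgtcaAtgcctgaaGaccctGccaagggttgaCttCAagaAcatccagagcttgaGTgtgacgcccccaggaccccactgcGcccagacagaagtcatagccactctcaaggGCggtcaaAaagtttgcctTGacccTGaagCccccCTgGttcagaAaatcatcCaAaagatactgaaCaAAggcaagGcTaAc
Cxcl3: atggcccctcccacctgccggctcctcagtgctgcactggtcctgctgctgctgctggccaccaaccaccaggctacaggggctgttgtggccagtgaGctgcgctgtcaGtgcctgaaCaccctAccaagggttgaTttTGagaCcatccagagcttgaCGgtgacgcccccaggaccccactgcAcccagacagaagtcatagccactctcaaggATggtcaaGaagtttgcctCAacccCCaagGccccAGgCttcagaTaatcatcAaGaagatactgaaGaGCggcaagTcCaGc

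By contrast, Cxcl1 was 76% identical to Cxcl2 and 72.7% to Cxcl3 over the coding sequence, with identical runs of at most 23 bases between transcripts. Of the 13 listed NF-kB inducers and feedback genes 12 were tested and 10 rose averaged over the sexes, where 34.7% of all genes rose. In males 7 rose and in females 10, where 31.5% and 26.7% of all genes rose. The 4 with the smallest p were the NF-kB subunit gene Relb (log2 fold change 1.39, SE 0.098), the mRNA-destabilizing Zfp36 (1.06, SE 0.081), the cytokine Il1b (1.89, SE 0.2) and the subunit gene Nfkb2 (0.44, SE 0.06). The 2 that did not pass, named after their values were seen, were Tnf (0.01, SE 0.18) and Nfkb1 (0.0017, SE 0.055).

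The homeostatic ligands Cxcl12 and Cxcl13 were barely detected. Cxcl12 (GRCm38 chr6:117168535-117181367), the stromal ligand of Cxcr4, had 0, 3, 2 and 0 counts in bleomycin males and 1, 0, 1 and 0 in bleomycin females, against 0 counts in all 8 saline libraries. A count of 0 allows up to 0.0385 CPM over the saline males and 0.0386 CPM over the saline females, at 3 counts per group, and this limit covers counting error only. Cxcl13 (chr5:95956951-95961068), the B cell attractant, had 0, 1, 5 and 0 counts in bleomycin males and 0, 6, 6 and 2 in bleomycin females, against 0 to 1 count in any saline library. With no filter on low counts, over 30188 genes, the average comparison gave edgeR adjusted p-values of 0.0545 for Cxcl12, 0.069 for Cxcl13 and 0.974 for Cxcl1.

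The lymphotoxin pathway, which drives Cxcl13 in stromal cells of lymphoid tissue, was measured beside it. All 6 listed genes rose averaged over the sexes, where 34.7% of all genes rose. There were 5 risen in males and 4 in females, where 31.5% and 26.7% of all genes rose. Ltb had 1 to 13 counts and Lta 1 to 7 counts in the saline libraries, so that they passed the filter mainly through the bleomycin groups and the count is no evidence on its own. The 4 with the smallest p were Ltb (log2 fold change 6.86, SE 0.36), Tnfsf14 (2.53, SE 0.26), the kinase gene Map3k14 (1.0, SE 0.12) and Lta (2.73, SE 0.47). Fibroblast markers, as a sign of stroma, summed to 4.18 to 7.97 CPM in bleomycin libraries, against 0.696 to 2.12 CPM in saline libraries. Of the 8 listed 2 passed the filter, Acta2 and Col1a1, and both rose. Acta2, at 2.19 to 3.93 CPM in bleomycin libraries and 0.609 to 2.06 CPM in saline libraries, was a large part of these sums. Col1a1 had 0 counts in all 8 saline libraries and passed through the bleomycin groups alone, so the count is no evidence on its own. Of 5 endothelial markers 3 passed and 2 rose, Cdh5 and Kdr. These had 0 to 2 counts in any saline library and passed through the bleomycin groups alone, with 2 to 26 counts of Cdh5 and 8 to 35 of Kdr there. Cldn5 had 0 counts in every library. The sum of 142 to 242 CPM in bleomycin libraries and 136 to 182 CPM in saline libraries was nearly all Vwf. The part of stromal cells in the Cxcl12 and Cxcl13 counts was not tested.

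Set against each other per length, the members changed order between treatments. In bleomycin males the order by mean FPKM was Cxcl16 (41.6), Cxcl14 (9.5), Pf4 (5.47), Cxcl2 (3.81), Cxcl10 (2.31), Cxcl9 (2.10), Cxcl3 (0.554), Cxcl1 (0.118), Cxcl13 (0.0645) and Cxcl12 (0.00773). In bleomycin females it was Cxcl16 (37.6), Cxcl14 (9.51), Pf4 (4.93), Cxcl10 (2.48), Cxcl9 (1.75), Cxcl2 (0.880), Cxcl3 (0.262), Cxcl13 (0.147), Cxcl1 (0.115) and Cxcl12 (0.00303). Cxcl16 did not overlap with the next gene in either sex, while Pf4 overlapped with the gene after it in both, and the place of Cxcl2 in males rested on C66.

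In saline males the order by mean FPKM was Cxcl14 (6.22), Cxcl16 (2.39), Cxcl2 (1.56), Pf4 (1.11), Cxcl9 (0.735), Cxcl10 (0.603), Cxcl3 (0.495), Cxcl1 (0.114) and Cxcl13 (0.0124). In saline females it was Cxcl14 (8.71), Cxcl16 (1.89), Pf4 (1.64), Cxcl2 (0.869), Cxcl9 (0.544), Cxcl3 (0.407), Cxcl10 (0.364), Cxcl1 (0.0952) and Cxcl13 (0.0217), and Cxcl12 was listed at 0 in both sexes. Cxcl14 stood clear of Cxcl16 in both sexes, and Cxcl16 overlapped with the gene after it.

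The summed FPKM of the 10 members was 51.9, 71.9, 80.0 and 58.4 in bleomycin males and 45.1, 59.5, 54.0 and 72.3 in bleomycin females, against 10.3, 17.9, 13.9 and 10.9 in saline males and 14.2, 13.4, 15.2 and 15.4 in saline females. Cxcl16 made up 63.7 ± 7.14% of that sum in bleomycin males and 65.7 ± 4.65% in bleomycin females, against 17.9 ± 2.84% in saline males and 13.1 ± 3.15% in saline females (SD, n = 4 each). Cxcl14 made up 14.9 ± 4.65% in bleomycin males and 16.4 ± 2.88% in bleomycin females, against 46.7 ± 4.32% in saline males and 59.6 ± 8.84% in saline females. Shares within a sum are bound to each other, so that the lower share of Cxcl14 after bleomycin stands beside a level that was not called fallen. Cxcl2 held 15.8% of the sum in C66.

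**Figure D4:**
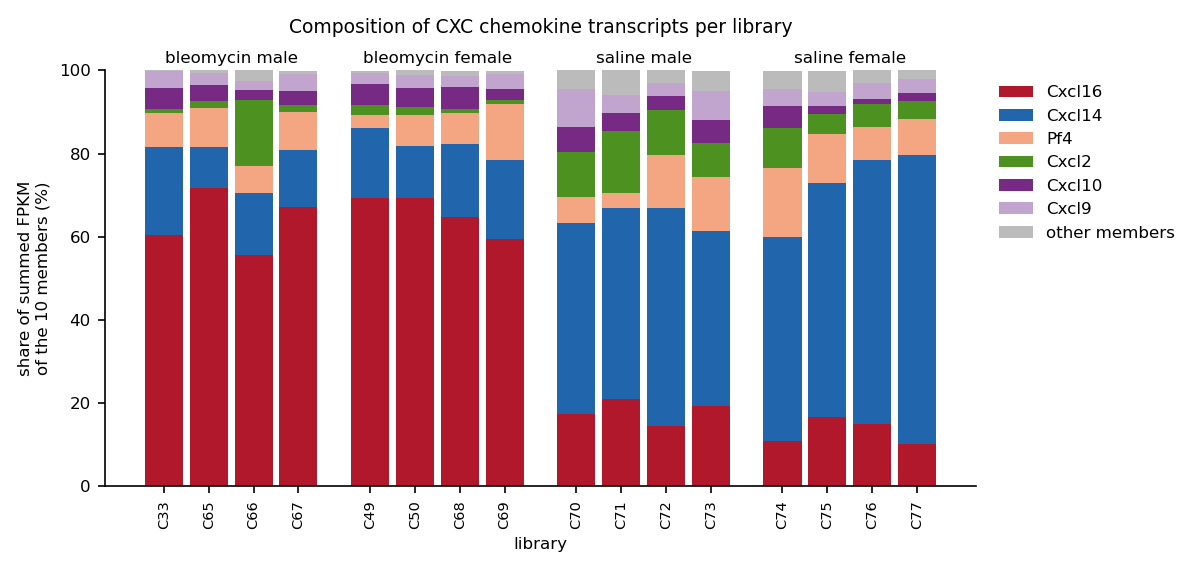
Share of each member in the summed FPKM of the 10 CXC chemokines (y axis, percent) in each of the 16 libraries (x axis), bleomycin groups left of saline groups. Cxcl16 holds 55.5 to 71.6% in the bleomycin libraries and 10.1 to 20.9% in the saline libraries, and Cxcl14 is the largest block in all 8 saline libraries.

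No member was called between males and females. The counts called were 0 of 7 under saline, under bleomycin and for the interaction of bleomycin with sex in edgeR's quasi-likelihood test, where 0.269%, 0.059% and 0.00655% of all genes were called in these 3 comparisons. At an unadjusted p under 0.05 there was 1 member under saline (Cxcl10, log2 difference of males over females 0.74, SE 0.35, adjusted p 0.519), 1 under bleomycin (Cxcl2, 2.09, SE 0.74, adjusted p 0.995) and 0 for the interaction. Without C74 the Cxcl10 difference under saline was 1.32 (adjusted p 0.0796) and its interaction -1.43 (adjusted p 0.423), and over all libraries left out in turn the first ran from 0.52 (without C76) to 1.32. Without C66 the Cxcl2 difference under bleomycin was -0.0401 (adjusted p 1). DESeq2 and limma voom also called 0 members in each of these, with 2 and 2 at an unadjusted p under 0.05 under saline, 0 and 0 under bleomycin, and 0 and 1 for the interaction. A p that misses the threshold does not show that the sexes are alike at these sample sizes.

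The receptors of the family were higher after bleomycin. Of 8 listed receptors 6 passed the filter and 6 rose averaged over the sexes, where 34.7% of all genes rose. There were 5 risen in males and 6 in females, where 31.5% and 26.7% of all genes rose. A gene absent under saline passed the filter through the bleomycin groups alone, so the count is no evidence on its own. The scavenging receptors Ackr1 and Ackr3, the 2 that did not pass, had at most 6 counts in any bleomycin library and at most 3 in any saline library.

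Cxcr3, the receptor of Cxcl9 and Cxcl10, was at 6.85 to 12.8 CPM in bleomycin males and 7.0 to 13.2 CPM in bleomycin females, against 0 to 0.194 CPM in saline males and 0 to 0.087 CPM in saline females (log2 fold change 7.61, SE 0.38, edgeR adjusted p 6.09e-12). Cxcr6, the receptor of Cxcl16, was at 11.2 to 15 CPM in bleomycin males and 5.69 to 21.9 CPM in bleomycin females, against 0.539 to 1.60 CPM in saline males and 0.170 to 0.870 CPM in saline females (4.01, SE 0.31, adjusted p 2.32e-09). Cxcr5, the receptor of Cxcl13, was at 5.41 to 16.6 CPM in bleomycin males and 3.76 to 14.0 CPM in bleomycin females, against 0.242 to 0.637 CPM in saline males and 0.0555 to 0.526 CPM in saline females (4.93, SE 0.37, adjusted p 1.46e-09). None of these 3 overlapped between treatments in either sex. The T cell markers summed to 326 to 681 CPM in bleomycin libraries and 240 to 274 CPM in saline libraries. Of the 12 listed 11 rose and 1 fell averaged over the sexes, where 34.7% of all genes rose and 28.8% fell. The marker that fell, Cd2 (named after its values were seen), was at 100 to 158 CPM in bleomycin libraries and 238 to 272 CPM in saline libraries and made up nearly all of the saline sum. Each of the other 11 was at 6.37 CPM or more in every bleomycin library and at 1.03 CPM or less in every saline library. B cell markers summed to 53.4 to 350 CPM in bleomycin libraries and 0.735 to 1.28 CPM in saline libraries, with 6 of 6 risen. These and the T cell markers that rose passed the filter mainly through the bleomycin groups, so the counts are no evidence on their own. The part of lymphocyte number in these receptor levels was not tested.

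Cxcr2, the receptor of the ELR ligands, was at 35.7 to 52.7 CPM in bleomycin males and 31.6 to 43.7 CPM in bleomycin females, against 4.60 to 8.07 CPM in saline males and 3.98 to 4.78 CPM in saline females (log2 fold change 2.93, SE 0.12, edgeR adjusted p 4.41e-13). Cxcr1 was at 27.3 to 36.0 CPM in bleomycin males and 18.1 to 46.1 CPM in bleomycin females, against 16.9 to 34.9 CPM in saline males and 6.70 to 11.1 CPM in saline females (1.09, SE 0.19, adjusted p 7.74e-05). Its change was 0.40 in males (adjusted p 0.205) and 1.78 in females (adjusted p 3.82e-05), and the difference of these was -1.38 (SE 0.38, adjusted p 0.526, unadjusted p 0.00203). The groups overlapped in males and not in females. Neutrophil markers, Cxcr2 among them, summed to 189 to 234 CPM in bleomycin libraries and 84.1 to 127 CPM in saline libraries. Averaged over the sexes, 5 of 7 tested rose, Cxcr2 itself among them, and 1 fell, where 34.7% of all genes rose and 28.8% fell. The marker that fell, Csf3r (named after its values were seen), was at 29.9 to 42.4 CPM in bleomycin libraries and 42.1 to 59.3 CPM in saline libraries. Ltf overlapped, at 1.44 to 5.71 CPM in bleomycin libraries and 2.44 to 8.14 CPM in saline libraries. Retnlg was at 0.992 to 13.1 CPM in bleomycin libraries and 0 to 0.111 CPM in saline libraries. S100a9 was at 3.19 to 40.6 CPM in bleomycin libraries and 0 to 0.167 CPM in saline libraries. Both passed the filter through the bleomycin groups alone. Ly6g, Mpo, Elane, Camp and Ngp were at 0.195 CPM or less in every library. The part of neutrophils in the Cxcr2 level was not tested. Cxcr4, the receptor of Cxcl12, was the most abundant by CPM, at 148 to 216 in bleomycin males and 144 to 179 in bleomycin females, against 84.1 to 145 in saline males and 79.7 to 144 in saline females (0.51, SE 0.12, adjusted p 0.00123).

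**Figure D5:**
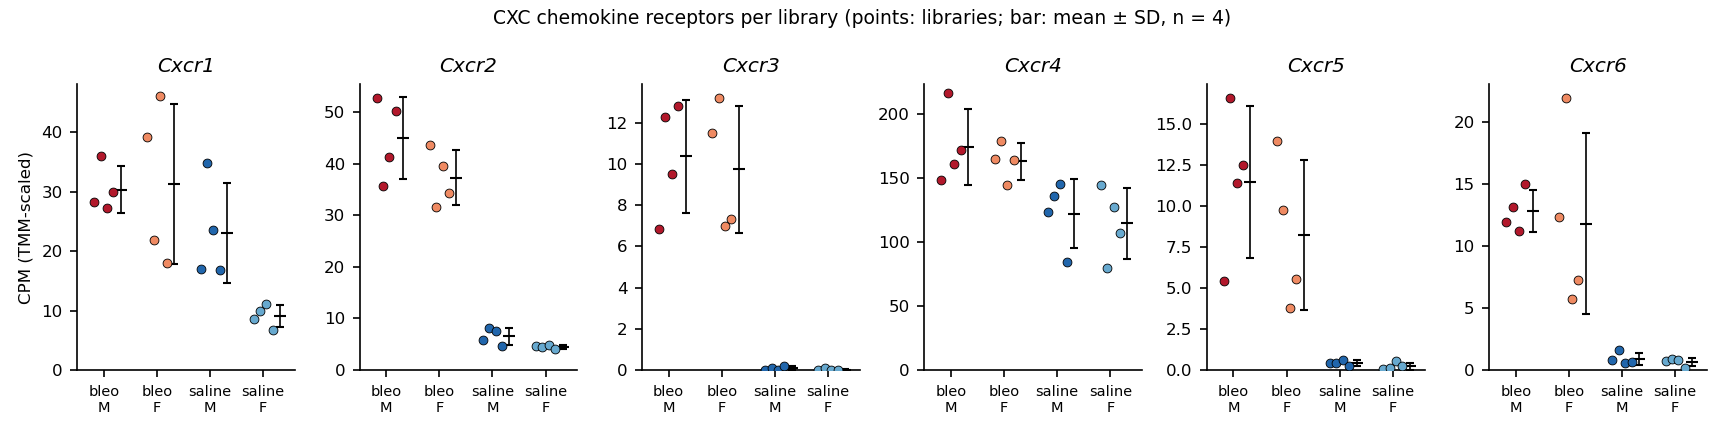
Levels of the 6 CXC chemokine receptors that passed the filter in CPM (y axes from 0, scaled per gene) per library, bleomycin males (bleo M) and females (bleo F) left of saline males and females. Points are libraries and bars the mean ± SD of 4, drawn no lower than 0. Cxcr2, Cxcr3, Cxcr5 and Cxcr6 do not overlap between bleomycin and saline libraries, whereas Cxcr1 overlaps in males.

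Of the other CXC ligands listed, the lung epithelial Cxcl15 was at 2.23 to 5.28 CPM in bleomycin libraries, against 0.0484 to 0.724 CPM in saline libraries (log2 fold change 3.21, SE 0.32, edgeR adjusted p 7.26e-08). The mucosal Cxcl17 was at 0.246 to 0.851 CPM in bleomycin libraries, against 0 to 0.145 CPM in saline libraries (3.21, SE 0.43, adjusted p 3.1e-06). Cxcl5, Ppbp and Cxcl11 did not pass the filter, with at most 5 counts in a bleomycin library and at most 1 in a saline library. Epithelial markers summed to 261 to 495 CPM in bleomycin libraries and 744 to 885 CPM in saline libraries. Of the 10 listed 7 rose and 2 fell averaged over the sexes, where 34.7% of all genes rose and 28.8% fell. The 2 that fell, named after their values were seen, were Krt19 (log2 fold change -2.15), the largest part of the saline sum, and Epcam (-2.66), while the alveolar epithelial Sftpc rose (3.08). The part of epithelial cells in the Cxcl15 and Cxcl17 levels was not tested.

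Proteases that act on chemokines also rose: 5 of 5 averaged over the sexes, where 34.7% of all genes rose. There were 4 risen in males and 5 in females, where 31.5% and 26.7% of all genes rose. Mmp9 had 0 to 2 counts in the saline libraries and passed the filter through the bleomycin groups alone, so the count is no evidence on its own. The 4 with the smallest p were the macrophage elastase Mmp12 (log2 fold change 5.24, SE 0.21), Dpp4, which trims the amino end of several CXC ligands (5.08, SE 0.25), the gelatinase Mmp9 (6.53, SE 0.59) and Adam10, which sheds Cxcl16 from the cell surface (0.52, SE 0.054).

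Genes whose levels followed a member most closely were ranked by Pearson's r of log2 CPM over the 16 libraries among 12619 protein-coding genes. Any gene with a difference between treatments shares that difference, so r is a description of these libraries only. Cxcl16 was followed most closely by Marcks (0.998), Trem2 (0.997) and Anpep (0.996). Cxcl10 was followed by Ifit1 (0.968), Ifit2 (0.966) and Nab1 (0.964), and Cxcl9 by Pef1 (0.971), Tmem50b (0.960) and Rnd1 (0.959). For Cxcl14 the closest were Ncf1 (0.874), Arl11 (0.855) and Idh1 (0.820). For Cxcl2 they were Rarg (0.746), Cxcl3 (0.735) and Armc7 (0.641), values that the single library C66 enters.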

How the data were processed

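The submitters' processing notes name HISAT2 2.0.5, fastp 0.12.2, DESeq2 and featureCounts 1.5.0-p3, and mm9 and mm10 as builds with no role for either. The deposited coordinates of the 10 members equal those of GENCODE M21 (GRCm38). The deposited counts are the authors' raw counts per gene, not normalized. The deposited FPKM are the authors' values, which equal counts over gene length and over 1 constant for each library, whose definition is not given in the sources used here. That constant was 0.998 to 1.03 times the library total after TMM scaling and 0.888 to 1.1 times the total before it. The strand setting and the treatment of reads that fit several genes are not given in these sources either.

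From the counts, genes were kept with filterByExpr by group (minimum count 10), scaled by TMM and fitted in edgeR 4.0.16 (R 4.3.3) with 1 coefficient per group over 16 libraries; 6 comparisons were tested by the quasi-likelihood F test, adjusted by Benjamini-Hochberg over 15257 genes and called below 0.05. Alternatives were library totals alone, DESeq2 1.42.0, limma voom 3.58.1, no filter, at least 1 CPM in at least 4 libraries, only the 2 groups compared, each of the 16 libraries left out, and counts per kilobase in place of FPKM. Scripts were tested on simulated data. The members, gene lists and patterns were chosen with earlier results of these data known. Every member is described; of the listed genes, all receptors and ligands and the 4 with the smallest p per pathway list are named, and the 3 genes most like a member for the 5 members with the highest CPM. No 2 libraries of the same group agreed within sampling noise. Promoter sequences are RefSeq's (GRCm38.p6), found for 9 of 10 members. The 5 deposited comparison tables were not used. Column names matched the sample labels, with 0 left over.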

Additional observations from a re-analysis of the deposited data

Results flagged for a closer look

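In 38 groups of 4 libraries with a spread, the gap of the highest or lowest library to its nearest neighbour was divided by the range of the group, and ratios above Dixon's 95% critical value for 4 values were taken as apart. Chance gives this in about 1 of 20 groups. Cxcl2 in bleomycin males was apart through C66 (ratio 0.946, 533 counts), as was Cxcl3 through the same library (ratio 0.878, 117 counts). Cxcl16 in saline males was just over the limit through C71 (ratio 0.83, 198 counts), which is still far below every bleomycin library. Cxcl13 in saline males had a ratio of 1 because C71 held 1 count and the others 0.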

How the results depend on the processing

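Cxcl16, Cxcl10, Cxcl9 and Pf4 kept direction and call in each of the 3 bleomycin comparisons under all 21 or 22 alternatives, with log2 fold changes averaged over the sexes between 4.01 and 4.37, 2.17 and 2.67, 1.39 and 1.69, and 1.65 and 2.09. With library totals alone the sign turned for Cxcl3 in males (-0.0687), Cxcl2 in females (-0.127) and Cxcl14 in females (-0.0714), and under limma voom for Cxcl3 in males (-0.684); the cause was not tested. Leaving out 1 library moved Cxcl2 between -0.409 and 0.876 in the average, -0.835 and 1.70 in males, -0.149 and 0.345 in females and -0.0401 and 2.46 between the sexes under bleomycin. It moved Cxcl3 in males between -1.35 and 0.545 and Cxcl14 in females between -0.117 and 0.253. The count of members fallen ranged between 0 and 1 in the average and in males. It was 1 only without C66, which was singled out by its Cxcl2 and Cxcl3 values. No paired analysis was possible because the library codes are not shared between groups and no label pairs them. Depth limits Cxcl1, Cxcl12 and Cxcl13, which had 67, 7 and 23 counts in all 16 libraries together.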
